A study of Mus musculus with 4 samples.

Results

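Keratins are the intermediate filament proteins of epithelial cells, and their transcripts were followed here on 4 single-colour arrays. The members were all array targets whose annotated gene name is Krt followed by a number and at most 1 letter, which gave 55 targets of 42 genes among 44170 targets and 24172 named genes. By the labels, 2 arrays held RNA of Neuro2a (N2a) cells, a mouse neuroblastoma line, transfected with an siRNA against Men1, and 2 held RNA of N2a cells transfected with a scramble siRNA, labelled as control. Men1 encodes menin, a scaffold protein of histone methyltransferase complexes. Both groups are the same line, no time after transfection is given in the labels, and the labels do not say whether replicates are separate cultures. The p-values therefore rest on the spread between arrays, which may be technical in origin. Of 9 measured sympathoadrenal neuroblast markers, the class that fits the labelled line, Hand1 was under an intensity of 100 on all 4 arrays, whereas the granin genes Chga and Chgb read between 3177 and 6539.

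A keratin filament is built from an obligate pair of 1 type I and 1 type II keratin. Krt8 (type II) and Krt18 (type I) form the filaments of simple, single-layered epithelia, where Krt7 and Krt19 are added in ducts and Krt20 in gut and urothelium. Stratified epithelia use other pairs, such as Krt5 with Krt14 in the basal layer and Krt1 with Krt10 above it, and hair shafts and root sheaths have keratins of their own. In the mouse the type I genes lie in a cluster on chromosome 11 and the type II genes, together with Krt18, in a cluster on chromosome 15. Neurons and neuroblasts are built mainly on neurofilaments, internexin and peripherin rather than keratins.

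The targeted gene, Men1, read 2764 and 4109 on the Men1 siRNA arrays and 6985 and 6222 on the scramble siRNA arrays, which did not pass the threshold (log2 change −0.97 ± 0.35, SE; limma adjusted p = 0.314). The other Men1 target read 2989 and 3802 with Men1 siRNA and 3843 and 3824 with scramble siRNA, a change of −0.19 ± 0.33 (limma adjusted p = 0.842 with every target tested on its own), so the 2 targets had one sign and different sizes. Array medians lay between 145.9 and 151.2 and the random control probes between 42.8 and 52.3. An intensity of 100, the level that every target in the authors' value table reaches on all 4 arrays, was taken as well above background, and between 40.2% and 41.0% of targets lay under it on each array. Changes are log2(Men1 siRNA) minus log2(scramble siRNA) with the moderated standard error, from limma fitted to all 24172 genes. The threshold was a Benjamini-Hochberg adjusted p of 0.05 over all of them. Each gene is represented by its target with the highest mean log2 value, and intensities of different genes are not compared with each other because each target has its own probes.

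Krt8 and Krt18, the pair of simple epithelia, fell, and they were the only keratins of the 42 to pass the threshold in limma. Over all genes 85 fell, a background of 0.352%, and 9 rose, a background of 0.0372%. Krt8 (gene ID 16691, chromosome 15, 101827139 to 101834724 on mouse build MM9) read 135.3 and 170.7 on the Men1 siRNA arrays and 1905 and 1977 on the scramble siRNA arrays. The higher Men1 siRNA value was far under the lower scramble siRNA value, with a mean of 153.0 ± 25.0 against 1941 ± 51.4 (SD, n = 2 each). The log2 change was −3.67 ± 0.32 (SE; limma adjusted p = 0.0346), so that 7.83% of the scramble level remained. The other Krt8 target read 103.3 and 134.0 on the Men1 siRNA arrays and 2743 and 2234 on the scramble siRNA arrays, with a change of −4.39 ± 0.35. The 2 targets of this gene therefore had the same direction, and both passed when every target was tested on its own (limma adjusted p = 0.0340 and 0.0304).

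Krt18 (gene ID 16668, chromosome 15, 101858684 to 101862451 on MM9), the type I partner of Krt8, read 269.5 and 457.5 on the Men1 siRNA arrays and 9975 and 6196 on the scramble siRNA arrays. The groups were far apart and all 4 arrays were above 100, so the size of the change is not set by the background. The log2 change was −4.48 ± 0.43 (SE, n = 2 per group; limma adjusted p = 0.0364), which left 4.47% of the scramble level. Neither call held with 1 array left out: limma's adjusted p was 0.0767 to 0.258 for Krt18 and 0.0936 to 0.256 for Krt8. Without Men1 siRNA replicates 1 and 2 the changes were −4.10 and −4.87 for Krt18 and −3.51 and −3.84 for Krt8, and without scramble siRNA replicates 1 and 2 they were −4.14 and −4.83 for Krt18 and −3.70 and −3.65 for Krt8.

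Krt19, Krt7 and Krt23 had changes of like size without passing. Krt19 (type I, chromosome 11, 100002125 to 100007226 on MM9), known from ductal epithelia, read 113.4 and 125.3 on the Men1 siRNA arrays and 1659 and 845.9 on the scramble siRNA arrays. Its change was −3.31 ± 0.42 (SE; limma adjusted p = 0.0592). Krt7 (type II, chromosome 15, 101242832 to 101258224 on MM9), which can pair with Krt18 or Krt19 in glandular and ductal epithelia, read 61.8 and 147.4 on the Men1 siRNA arrays and 1453 and 719.9 on the scramble siRNA arrays. Its change was −3.42 ± 0.57 (limma adjusted p = 0.0971), and because Men1 siRNA replicate 1 was under 100 its size is less certain. Krt23 (type I, chromosome 11, 99339286 to 99348105 on MM9), a keratin of glandular epithelia that was not in the simple-epithelial class as defined here, read 57.7 and 102.4 on the Men1 siRNA arrays and 1261 and 742.4 on the scramble siRNA arrays. Its change was −3.65 ± 0.45 (limma adjusted p = 0.0577), also with 1 Men1 siRNA array under 100. For each of these 3 genes the higher Men1 siRNA value was under the lower scramble siRNA value, which was so for 21.7% of all genes. A log2 change of −3 or less was found for 0.65% of all genes.

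Krt20, the keratin of gut and urothelium, was the only simple-epithelial member with a positive change. It read 201.6 and 84.0 on the Men1 siRNA arrays and 59.3 and 59.2 on the scramble siRNA arrays, of which 1 of 4 values reached 100. The groups did not overlap, the fold was at least 1.30, and the change of 1.14 ± 0.48 (SE) did not pass in limma (adjusted p = 0.372). The simple-epithelial class thus held 4 genes with a negative and 1 with a positive change, with a median of −3.42, whereas the median of all genes was 0.06.

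**Figure D1:**
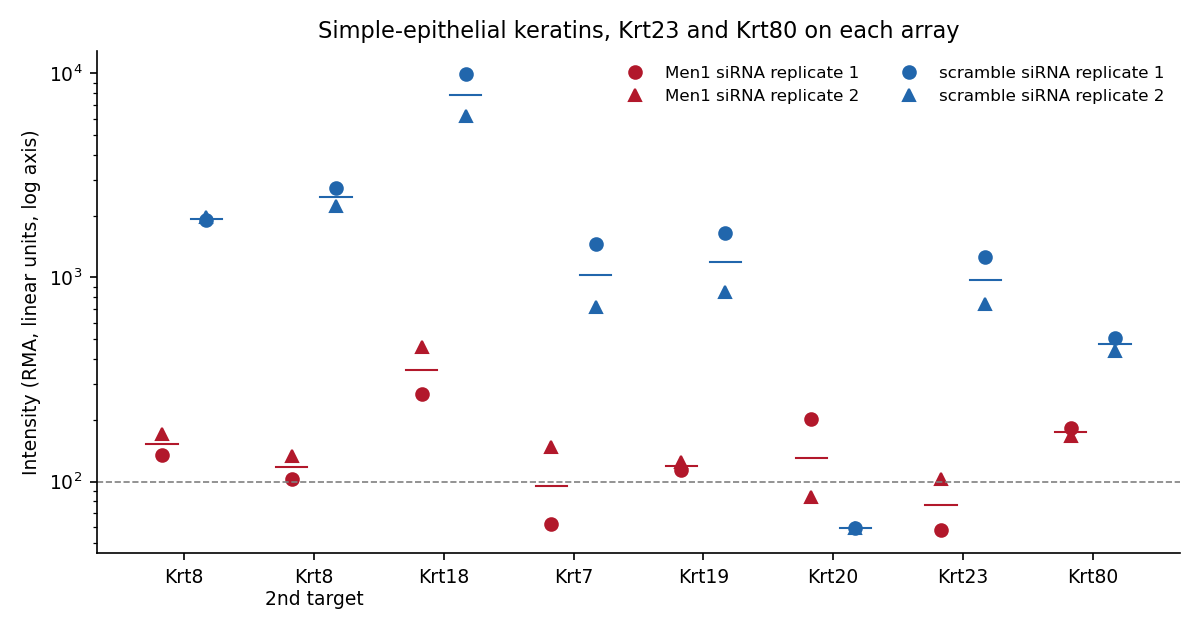
Intensity of each array (log axis, RMA values) for the 5 simple-epithelial keratins, Krt23 and Krt80, with Men1 siRNA arrays in red at the left and scramble siRNA arrays in blue at the right of each gene. Circles are replicate 1, triangles replicate 2, short bars the geometric mean of 2 arrays, and the dashed line an intensity of 100; Krt8 is shown for both of its targets. The red points lie below the blue ones for every gene shown but Krt20, and on the Men1 siRNA arrays only Krt18 is above 200 on both.

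Within the groups, the replicates also differed. On the scramble siRNA arrays the ratio of replicate 1 to replicate 2 was 1.61 for Krt18, 1.96 for Krt19, 2.02 for Krt7 and 1.70 for Krt23. For Krt8 it was 0.963, whereas its other target had the opposite order, with 2743 on replicate 1 and 2234 on replicate 2. On the Men1 siRNA arrays the same ratio was 0.589 for Krt18, 0.905 for Krt19, 0.419 for Krt7, 0.563 for Krt23 and 0.793 for Krt8. By these ratios, 1 target per gene, 4 of these 5 genes were brighter on scramble siRNA replicate 1 than on replicate 2. All 5 were brighter on Men1 siRNA replicate 2 than on replicate 1. These ratios come from the same 4 arrays and are not independent of each other.

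Because Krt8, Krt18, Krt7 and Krt23 had changes of the same sign and like size, their promoters are shown, with that of Krt20, whose change was positive. Krt19 had such a negative change as well, but no promoter was available for it, so it was not examined. The sequences are from RefSeq on build GRCm38.p6, from 250 bases before to 50 bases after the annotated start, 5′ to 3′ on the strand of the gene. Promoters were available for 28 of the 42 keratin genes, and those of the 5 are at chr15:102004293-102004592 (minus strand) for Krt8, chr15:102027966-102028265 (plus) for Krt18, chr15:101412153-101412452 (plus) for Krt7, chr11:99493071-99493370 (minus) for Krt23 and chr11:99438104-99438403 (minus) for Krt20. Capitals mark every match, on either strand, to 1 of 7 motifs: the TATA box (TATAAA), the GC box (GGGCGG), the AP-1 site (TGANTCA), the CCAAT box (CCAAT), the grainyhead site (AACCNGTT), the Ets site (CCGGAAG) and an E-box (CACCTG).
Krt8: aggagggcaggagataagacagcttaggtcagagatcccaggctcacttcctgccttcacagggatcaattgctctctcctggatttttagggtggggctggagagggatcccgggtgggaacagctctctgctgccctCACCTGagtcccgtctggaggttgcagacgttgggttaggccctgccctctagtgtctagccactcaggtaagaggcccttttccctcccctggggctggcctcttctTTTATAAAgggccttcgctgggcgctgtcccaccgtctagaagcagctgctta
Krt18: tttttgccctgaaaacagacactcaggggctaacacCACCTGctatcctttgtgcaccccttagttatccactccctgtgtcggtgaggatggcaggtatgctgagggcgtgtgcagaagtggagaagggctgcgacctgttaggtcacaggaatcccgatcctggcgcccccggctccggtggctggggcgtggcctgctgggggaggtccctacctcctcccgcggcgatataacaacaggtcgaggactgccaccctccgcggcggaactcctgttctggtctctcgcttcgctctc
Krt7: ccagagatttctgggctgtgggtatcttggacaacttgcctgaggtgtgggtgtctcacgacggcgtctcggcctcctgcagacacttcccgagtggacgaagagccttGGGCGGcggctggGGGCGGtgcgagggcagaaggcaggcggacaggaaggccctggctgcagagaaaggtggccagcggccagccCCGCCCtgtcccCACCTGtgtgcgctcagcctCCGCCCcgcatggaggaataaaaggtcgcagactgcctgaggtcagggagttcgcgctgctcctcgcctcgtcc
Krt23: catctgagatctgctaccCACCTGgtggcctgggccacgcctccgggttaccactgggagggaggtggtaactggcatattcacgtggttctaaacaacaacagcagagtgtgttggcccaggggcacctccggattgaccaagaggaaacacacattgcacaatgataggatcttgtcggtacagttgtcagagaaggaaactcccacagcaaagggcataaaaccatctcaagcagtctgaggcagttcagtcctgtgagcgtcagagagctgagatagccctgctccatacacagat
Krt20: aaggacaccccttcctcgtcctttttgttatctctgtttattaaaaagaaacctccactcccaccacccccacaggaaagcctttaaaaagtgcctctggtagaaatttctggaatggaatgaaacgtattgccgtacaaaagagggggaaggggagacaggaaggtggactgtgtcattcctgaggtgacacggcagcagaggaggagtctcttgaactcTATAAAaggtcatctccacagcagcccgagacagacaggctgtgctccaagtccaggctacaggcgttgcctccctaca

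The E-box letters CACCTG, a sequence that the repressors Snai1 and Zeb1 are known to bind, occurred once in each of the Krt8, Krt18, Krt7 and Krt23 promoters and not in that of Krt20. Their first bases were 111 (Krt8), 214 (Krt18), 44 (Krt7) and 232 (Krt23) bases before the annotated start. The same letters were in 12 of the 29 promoters listed for the 28 keratin genes (Krt13 is listed more than once), these 4 included. Of all 32851 promoters, 20.2% held them. The GC box occurred 4 times in the Krt7 promoter and in none of the other 4 shown, against 35.7% of all promoters. TATAAA lay 29 bases before the start of Krt20. In Krt8 it overlapped the annotated start, where its 2 matches, 1 on each strand, overlap each other. TATAAA was in 16 of the 29 keratin promoters and 13.6% of all promoters. The AP-1, CCAAT, grainyhead and Ets letters were in none of the 5 windows, and in 7.81%, 37.4%, 2.09% and 8.86% of all promoters. The base composition of the 5 promoters differed, with 66.3% G and C for Krt7, 61.3% for Krt18, 58.0% for Krt8 and 53.0% for Krt23, and Krt20 was the lowest, around a median of 52.7% for all promoters. A match describes the letters in these windows and does not show a binding site. The promoters were picked by the changes of their genes, and the motifs with earlier results known. The difference between Krt20 and the other 4 is therefore not a test.

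None of the 16 stratified keratins passed in limma, and 3 had an unadjusted p under 0.05, 1 lower and 2 higher with Men1 siRNA. Over all genes 14.2% had an unadjusted p under 0.05, 7.74% lower and 6.47% higher, so 3 of 16 is near the background. Their median change was 0.35, from −1.02 to 1.49. Of these genes, 5 had both Men1 siRNA arrays above both scramble siRNA arrays, 1 had both below, and 10 overlapped; over all genes 25.8% were above and 21.7% below. Only 7 of the 16 reached 100 on both arrays of a group. Krt77, an epidermal type II keratin, had the highest change of all 42 genes, with 182.6 and 341.5 on the Men1 siRNA arrays and 70.8 and 111.5 on the scramble siRNA arrays. That difference of 1.49 ± 0.45 (SE) did not pass (limma adjusted p = 0.257).

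The basal pair was not measured alike on the 4 arrays. Krt14 read 74.7 and 411.7 on the Men1 siRNA arrays and 995.6 and 127.0 on the scramble siRNA arrays. The groups overlapped, and its replicates differed more than its group means did (log2 change −1.02 ± 1.19, SE; limma adjusted p = 0.732). Its other target was under 100 on every array. Krt5, its type II partner, read 252.8 and 38.5 on the Men1 siRNA arrays and 46.0 and 51.6 on the scramble siRNA arrays, so that 1 of 4 arrays was above 100. Krt15, a further basal keratin, reached 100 on 1 array, Men1 siRNA replicate 2, at 138.7.

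Of the suprabasal pair, Krt10 read 233.6 and 423.9 on the Men1 siRNA arrays and 496.1 and 408.5 on the scramble siRNA arrays, with overlapping groups (−0.52 ± 0.41, SE; limma adjusted p = 0.607). Krt1 was under 100 on all 4 arrays. Among keratins of stress and appendages, Krt17 read 153.7 and 144.5 with Men1 siRNA and 144.6 and 249.8 with scramble siRNA, and Krt6b read 368.7 and 183.1 with Men1 siRNA and 205.7 and 300.7 with scramble siRNA. Both overlapped, and neither had a settled sign when arrays were left out. The mapped span of the Krt6b target covers Krt6a as well, and these near-identical paralogs may share probes. Krt16 read 111.3 and 128.6 with Men1 siRNA, against 99.0 and 52.8 with scramble siRNA, at least 1.20-fold higher without passing (limma adjusted p = 0.480). Krt42, a mouse type I keratin next to Krt17, read 101.2 and 153.3 with Men1 siRNA and 65.1 and 52.8 with scramble siRNA. It was at least 1.25-fold higher without passing (limma adjusted p = 0.289), and its other target had the opposite sign, −0.71.

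None of the 11 hair keratins passed in limma, and 1 had an unadjusted p under 0.05, against 14.2% of all genes. Their median change was 0.21, from −0.96 to 0.98. Krt34 read 152.1 and 141.1 on the Men1 siRNA arrays and 83.8 and 65.7 on the scramble siRNA arrays, at least 1.47-fold higher without passing (limma adjusted p = 0.283). Krt33b read 390.4 and 584.1 with Men1 siRNA and 374.7 and 367.6 with scramble siRNA, a change of 0.36 ± 0.35 (SE; limma adjusted p = 0.676). At its other target it read 529.5 and 618.7 with Men1 siRNA, against 244.7 and 243.1 with scramble siRNA, a change of 1.23 ± 0.33, so the 2 targets had one sign and different sizes. Krt81 read 205.8 and 158.8 with Men1 siRNA and 70.0 and 150.3 with scramble siRNA, and Krt82 read 73.9 and 289.7 with Men1 siRNA and 194.8 and 382.3 with scramble siRNA. Neither passed (limma adjusted p = 0.479 for Krt81 and 0.615 for Krt82), and the replicates differed more than the group means did, for Krt81 in the scramble siRNA group and for Krt82 in both groups. The mapped spans of the 2 Krt85 targets cover other keratin genes of the cluster, so the values of Krt85, Krt81, Krt82, Krt84, Krt6a and Krt6b may not be separate.

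The 6 root sheath keratins, which form the layers around the growing hair, held none that reached 100 on both arrays of a group. None passed in limma, and 0 had an unadjusted p under 0.05. Their median was 0.29, from −0.86 for Krt25 to 0.76 for Krt72. Of the 4 remaining keratins, Krt23 is given above. Krt80, an epithelial type II keratin, read 183.3 and 167.1 on the Men1 siRNA arrays and 507.4 and 434.7 on the scramble siRNA arrays. The groups did not overlap, and the change of −1.42 ± 0.31 (SE) did not pass (limma adjusted p = 0.159). Its other 3 targets had −1.08, −0.42 and 0.96, so its targets disagree in sign. Krt24 read 689.7 and 1254 on the Men1 siRNA arrays and 1124 and 947.1 on the scramble siRNA arrays, with overlapping groups and a change of −0.15 ± 0.40 (limma adjusted p = 0.893). Krt222 did not reach 100 on both arrays of either group.

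In all, 18 of the 42 keratin genes reached 100 on both arrays of at least 1 group, 14 of them on both Men1 siRNA arrays and 13 on both scramble siRNA arrays, and 8 were under 100 on all 4 arrays. The 23 keratins that were not simple-epithelial and did not reach 100 on both arrays of a group, Krt5 among them, had changes from −0.96 to 1.02, none of which passed. The median over all 42 was 0.16. With Krt7, Krt8, Krt18, Krt19 and Krt23 set aside, a choice made after their values were seen, the other 37 had a median of 0.29 and lay between −1.42 and 1.49, with 23 positive and 14 negative. Targets that carry older names on the array and are Krt83, Krt88 and Krt90 by current gene ID were not members. They read at most 121.2, 134.8 and 194.5 for Krt88, Krt90 and Krt83.

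**Figure D2:**
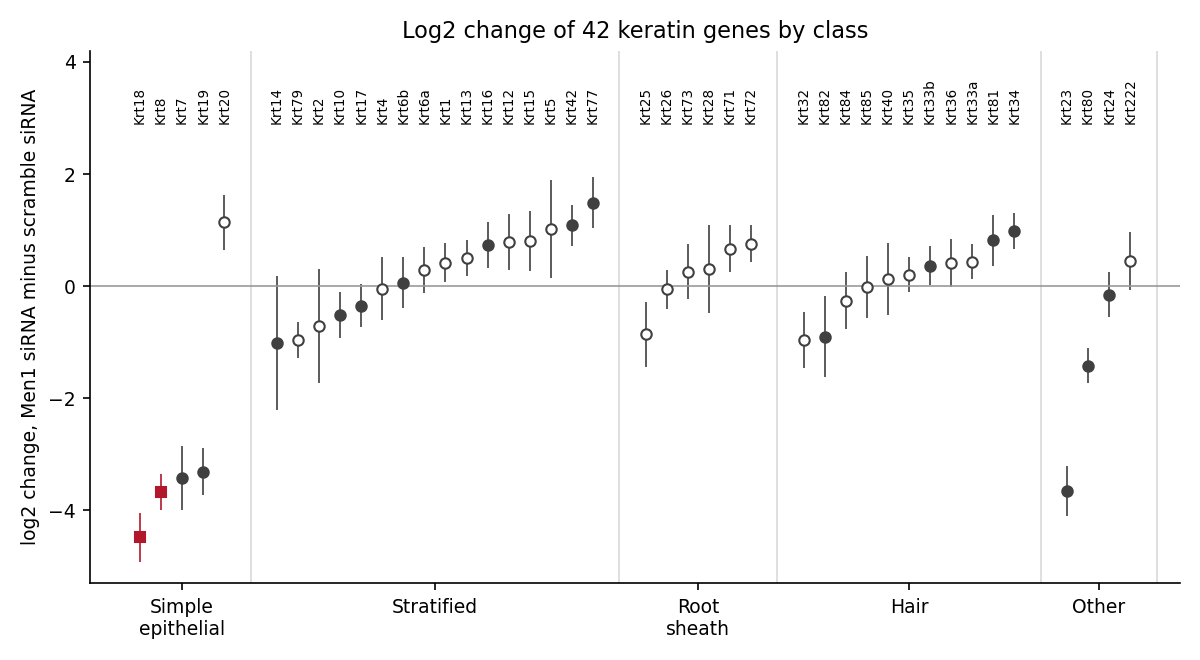
Log2 change (Men1 siRNA minus scramble siRNA) of all 42 keratin genes, grouped by class and ordered by value within each class, with bars for the standard error. Red squares passed the threshold, filled grey circles did not pass but reached 100 on both arrays of a group, and open circles did neither. Krt18, Krt8, Krt7, Krt19 and Krt23 lie between −4.48 and −3.31, and all others between −1.42 and 1.49.

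The genes with large changes were not neighbours as a block. On chromosome 15, 19 keratin genes lie between 101180001 and 101862451 on MM9, where Krt80 and Krt7 are the first and second in order and Krt8 and Krt18 the last, with 23960 bases between the Krt8 and Krt18 targets. The 15 genes between Krt7 and Krt8 had changes from −0.96 to 1.49, and none of them passed in limma. On chromosome 11, 23 keratin genes lie between 99094411 and 100131185. There Krt23 (−3.65) stands between Krt20 (1.14) and Krt40 (0.12, with −0.45 at its other target), and Krt19 (−3.31) stands between Krt15 (0.81) and Krt14 (−1.02). Krt15 ends 4883 bases before the start of Krt19. Differences between neighbours were not tested.

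**Figure D3:**
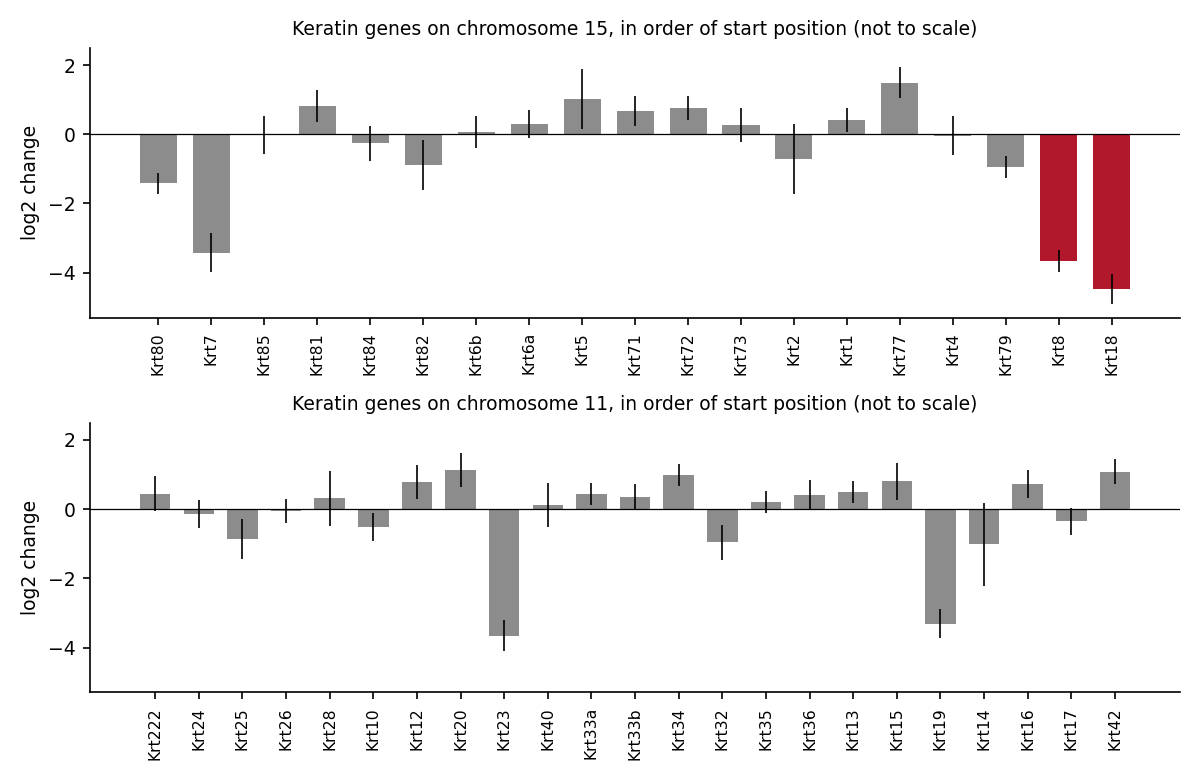
Log2 change of the keratin genes in their order along chromosome 15 (top) and chromosome 11 (bottom), with bars for the standard error and red for genes past the threshold. Spacing is not to scale. The 5 deep bars, from −4.48 to −3.31, are Krt7, Krt8 and Krt18 at the ends of the chromosome 15 cluster and Krt23 and Krt19 inside the chromosome 11 cluster.

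Genes that work with keratins were described next, from lists that were chosen with earlier results of these data known. Their counts are set beside the share of all genes as a description, not as a test. Keratin filaments are anchored at desmosomes through desmoplakin and plakophilins and along the cell cortex through periplakin and envoplakin. Of 12 measured desmosome and cytolinker genes, none passed in limma, 5 had an unadjusted p under 0.05, all lower, against 7.74% of all genes, and the median change was −1.01. Dsg2, the desmosomal cadherin of simple epithelia, read 26.9 and 55.4 on the Men1 siRNA arrays and 338.7 and 339.4 on the scramble siRNA arrays, at least 3.39-fold lower without passing (limma adjusted p = 0.0737). Its partner Dsc2 was at least 2.11-fold lower and periplakin, Ppl, at least 2.81-fold lower, also without passing (limma adjusted p = 0.157 and 0.159). Pkp3, a plakophilin, had −1.49 ± 0.46 (SE; limma adjusted p = 0.263).

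All 14 measured transcription and splicing factors of epithelia had negative changes, against 45.5% of all genes, with a median of −1.76. Of them 9 had an unadjusted p under 0.05, against 7.74% of all genes in that direction. Grhl2, a grainyhead factor that maintains epithelial junction genes, fell. It read 71.5 and 50.3 on the Men1 siRNA arrays and 824.6 and 651.9 on the scramble siRNA arrays, at least 7.33-fold lower (limma adjusted p = 0.0365). Ehf and Elf3, Ets factors of epithelia, had −2.38 ± 0.33 and −3.36 ± 0.58 (SE), and Ovol1, a zinc finger factor, was at least 1.77-fold lower. None of those 3 passed (limma adjusted p = 0.0725, 0.104 and 0.0881).

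Other intermediate filament genes showed no common direction: 6 of 11 were negative and 5 positive, the median was −0.21, none passed in limma, and 3 had an unadjusted p under 0.05, against 14.2% of all genes. Desmin, Des, the filament of muscle, read 61.9 and 86.9 with Men1 siRNA and 419.2 and 454.2 with scramble siRNA, at least 4.36-fold lower without passing (limma adjusted p = 0.0639). The neural filaments nestin, Nes, and internexin, Ina, had 0.84 ± 0.30 and 0.82 ± 0.31 (SE; limma adjusted p = 0.314 and 0.331). Lamin A/C, Lmna, of the nuclear envelope had −0.87 ± 0.36 (limma adjusted p = 0.364). Of 37 keratin-associated protein genes, the matrix proteins of hair, none passed in limma, 4 had an unadjusted p under 0.05, 1 lower and 3 higher, which is a smaller share than the 14.2% of all genes, and the median was 0.34. Krtap5-1 had 1.27 ± 0.38, Krtap4-8 1.22 ± 0.34 and Krtap8-1 was at least 1.54-fold higher, none of which passed. Krtap7-1 was under 100 on all arrays. Of 10 cornified envelope genes none passed in limma, 1 had an unadjusted p under 0.05, against 14.2% of all genes, and the median was 0.09. Flg, which encodes the keratin-bundling filaggrin, had −1.13 ± 0.37 (SE; limma adjusted p = 0.279), and the envelope gene Lor had 0.71 ± 0.35. Tchh had −0.72 ± 0.49. Ivl read 70.9 and 126.8 with Men1 siRNA and 39.8 and 60.2 with scramble siRNA, too near background for a size to be given.

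Markers of several other cell types were read on the same arrays. These lists too were chosen with earlier results of these data known, so their counts are not an independent test. All 12 epithelial markers had negative changes, against 45.5% of all genes, with a median of −3.37. Their groups did not overlap, and 21.7% of all genes lay lower without overlap. All 12 had an unadjusted p under 0.05, against 7.74% of all genes in that direction. By the adjusted threshold 3 of them fell, against 0.352% of all genes (limma adjusted p = 0.0347 for Cdh1, 0.0405 for Cldn3 and 0.0408 for Muc1). Cdh1, E-cadherin, had −4.56 ± 0.42 (SE), Cldn3 was at least 16.8-fold lower and Muc1 had −4.14 ± 0.45. On Men1 siRNA replicate 1, Cdh1 and Muc1 were under 100, at 75.4 and 62.4, so their sizes are less certain. Cldn4 was at least 8.53-fold lower without passing (limma adjusted p = 0.0521). A sum of intensities is weighted towards the brightest targets. That of the 12 markers was 1322 and 2984 on the Men1 siRNA arrays and 26843 and 17545 on the scramble siRNA arrays. In both groups the replicate with the higher sum is the one on which Krt18, Krt19, Krt7 and Krt23 were brighter. For Krt8 this held on the Men1 siRNA arrays. On scramble siRNA replicates 1 and 2 its targets went opposite ways, with 1905 and 1977 at one and 2743 and 2234 at the other. With 2 arrays per group, such an agreement in order was not tested. Of the 12 markers, 3 were under 100 on both Men1 siRNA arrays and none on both scramble siRNA arrays.

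Of 10 fibroblast markers, all had negative changes, against 45.5% of all genes. Of them 3 fell, against 0.352% of all genes. These were Col1a1 (−4.37 ± 0.34, SE), Col1a2 (−3.57 ± 0.32) and Mfap5 (at least 9.46-fold lower), with limma adjusted p of 0.0327, 0.0347 and 0.0365. Pdgfra and Thy1 changed little, with −0.33 ± 0.30 and −0.20 ± 0.31 (limma adjusted p = 0.658 and 0.796). Col3a1 had −4.30 ± 0.53 without passing (limma adjusted p = 0.0577). The summed intensity of the 10 markers was 9728 and 9199 with Men1 siRNA and 40433 and 43318 with scramble siRNA. Of 8 endothelial and immune markers, 7 were negative, against 45.5% of all genes, and none passed in limma. Of them 6, all lower, had an unadjusted p under 0.05, against 7.74% of all genes. Cdh5 had −3.18 ± 0.38, Cd14 −2.23 ± 0.31 and Kdr −2.01 ± 0.30, and Tek was at least 2.58-fold lower. The sum was 2765 and 3049 with Men1 siRNA and 11667 and 6809 with scramble siRNA.

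Mesothelium, the lining of body cavities, also expresses Krt8, Krt18 and Krt19. Of 6 measured mesothelial markers, 1 fell, Wt1 (−3.22 ± 0.37, SE; limma adjusted p = 0.0452), against 0.352% of all genes. Msln was the 1 that rose (at least 7.06-fold higher; limma adjusted p = 0.0408), against 0.0372% of all genes. Upk1b was at least 1.14-fold lower without passing. Upk3b and Muc16 were under 100 on all arrays. The summed intensity was 13819 and 8285 with Men1 siRNA and 10679 and 12982 with scramble siRNA, of which Gpm6a, a membrane glycoprotein that neurons also express, made up 83.4% to 93.6%. Without Gpm6a the sum was 882.3 and 1249 with Men1 siRNA and 1768 and 1287 with scramble siRNA. Of 9 neuroblast markers 6 were positive, against 54.5% of all genes, and none passed, with a median of 0.22. Of them 1 had an unadjusted p under 0.05, against 14.2% of all genes. Gata3 had −1.83 ± 0.40, Chgb 0.70 ± 0.31 and Chga 0.64 ± 0.35. Their sum was 15020 and 12602 with Men1 siRNA and 7907 and 10632 with scramble siRNA. All 8 forebrain neuron markers were positive, against 54.5% of all genes, with a median of 0.78. None passed in limma and 2 had an unadjusted p under 0.05, both higher, against 6.47% of all genes. Gad2 had 1.23 ± 0.39, Bcl11b 0.93 ± 0.43, Gad1 0.86 ± 0.34 and Slc17a7 0.85 ± 0.41, and their sum was 24887 and 23652 with Men1 siRNA and 12284 and 19477 with scramble siRNA.

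Of these 6 marker sums, the mesothelial one overlapped between the groups and the other 5 did not. Without Gpm6a the mesothelial sum did not overlap either and was lower with Men1 siRNA, but its nearest values were 1249 with Men1 siRNA and 1287 with scramble siRNA. The mesothelial markers had no common direction, with 3 positive and 3 negative changes. Of single genes, 21.7% lay below and 25.8% above without overlap. The sums come from the same arrays that set the keratin values, and the part of other cells in the keratin changes was not tested. In RNA of a whole culture, fewer cells of a type and less RNA per cell cannot be told apart.

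**Figure D4:**
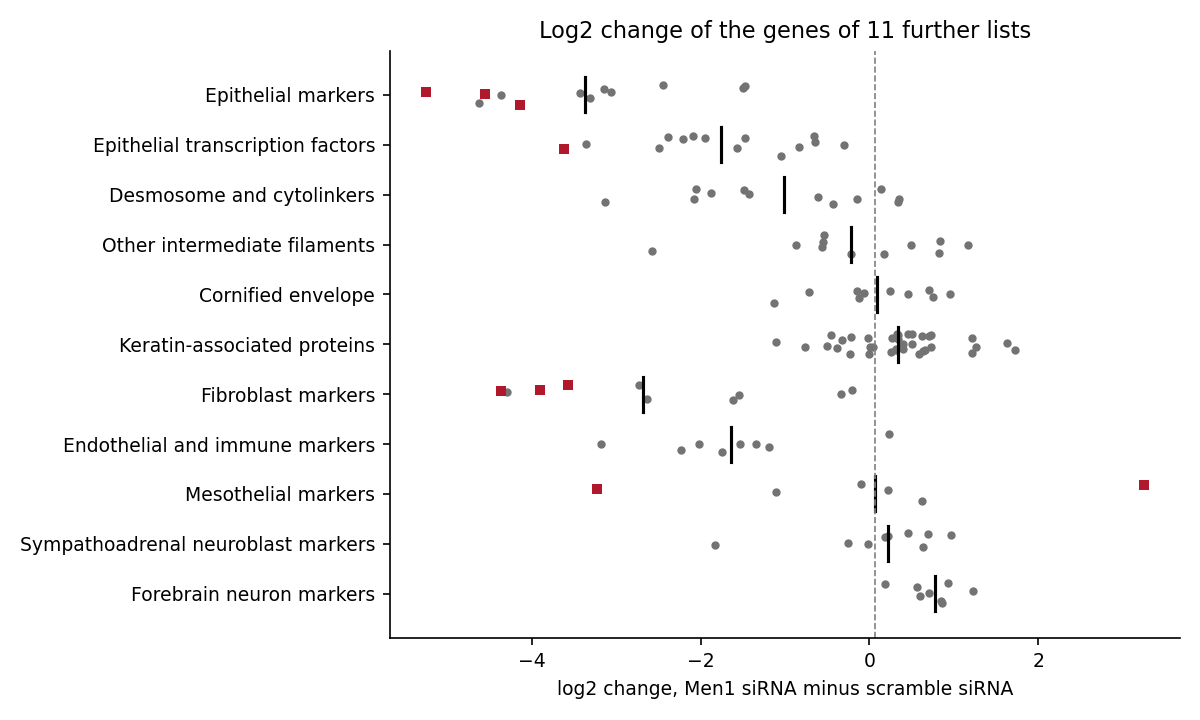
Log2 change (Men1 siRNA minus scramble siRNA, horizontal axis) of each gene in 11 further lists, with red squares for genes past the threshold, grey circles for the others, black bars for list medians and a dashed line for the median of all genes (0.06). The epithelial, fibroblast and endothelial and immune markers have medians of −3.37, −2.68 and −1.64, and the forebrain neuron markers 0.78.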

How the data were processed

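RNA was measured on 4 NimbleGen-format arrays, 2 per group. The authors deposited intensities on a linear scale, 1 value per target, and per the file headers and names these are RMA summaries (robust multi-array average). Background correction and scanner software: not given in the sources used here. An Agilent array is named in the series text, whereas the labelling protocol and file format are NimbleGen's. A row of 5000 random probes was left out of all tests. The header field of the file of Men1 siRNA replicate 1 carries the number 2, and the authors' value table (20620 targets) holds the scramble siRNA columns exchanged for all 11 keratin targets it lists (equal within a relative tolerance of 1e-04), so replicate numbers are uncertain within groups and groups are not affected.

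Values were taken to log2 without pseudocount or further normalization. The brightest target by mean log2 value stood for a gene, and limma 3.58.1 in R 4.3.3 (lmFit, eBayes, group as the only term, two-sided) was fitted to all 24172 genes. An exact permutation test of 2 against 2 arrays cannot go below 0.33. Where both arrays of a group were under 100, the fold is "at least" the brighter group's geometric mean over 100. Keratin symbols came from the array, and 41 of 42 keratin gene IDs matched the RefSeq table. Other genes carry the current RefSeq symbol of their gene ID, or the array's name where no ID matched. Tables and figures were made with numpy 2.4.6, pandas 2.3.3 and matplotlib 3.10.9 in Python 3.11.15, and the fit was tested on simulated data.

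Members, classes, lists and motifs were chosen with earlier results of these data known. Each array's values are given for simple-epithelial keratins, keratins past the threshold and those at 100 or more on both arrays of a group. Of each further list, members past the threshold and the 4 with the smallest p are named, except that some neuroblast markers are not reported here. Same-numbered arrays deviated from their group means with a correlation of −0.17. Alternatives were a replicate block, a crossed block (added after the data were seen), each array left out, 3 normalizations, the value table, a filter on dim genes, other ways to use targets, other priors, a pseudocount of 32 and a floor of 100.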

Additional observations from a re-analysis of the deposited data

How the results depend on the processing

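Krt8 and Krt18 remained the only keratins past the threshold under quantile normalization, median scaling, cyclic loess, the robust prior and the mean of all targets, and with the replicate block, which left 2 keratins and 69 of all genes; with every target on its own, 3 keratin targets (both of Krt8 and that of Krt18) and 150 of all targets passed. Same-numbered arrays deviated from their group means with a correlation of −0.17. Because replicate numbers are uncertain within groups, that value cannot decide whether arrays were paired, or which ones. With crossed replicate numbers as a block 0 keratins and 0 genes passed in limma (12 and 3980 at an unadjusted p under 0.05). With any 1 array left out 0 keratins and 0 genes passed (8 to 11 and 2105 to 3357 at an unadjusted p under 0.05), although the changes of Krt8 and Krt18 stayed between −4.87 and −3.51; fewer arrays enter these fits. With a floor of 100, 0 keratins and 8 genes passed (7 and 3255 at an unadjusted p under 0.05). More passed with a prior that follows intensity (5 keratins, 711 genes), a pseudocount of 32 (4 keratins, 252 genes), the filter on dim genes (6 keratins, 677 genes) and the value table (4 keratins, 422 genes). The last 2 test fewer genes, and the filter keeps a gene that is bright in 1 group only; the cause was otherwise not tested. All keratins called in any setting were lower with Men1 siRNA: Krt19 was called in 4, Krt23 in 3, and Krt7 and Krt80 in 2 each. Among the 19 keratins that were simple-epithelial or reached 100 on both arrays of a group, signs turned only where 1 array was left out, and none of those values passed; the other 23 were not followed one by one. Over the 4 fits that leave out 1 array, the change ranged from −2.50 to 0.47 for Krt14 (positive without Men1 siRNA replicate 1 or scramble siRNA replicate 1), from −0.75 to 0.044 for Krt17 (positive without scramble siRNA replicate 2), from −0.58 to 0.28 for Krt24 and from −1.88 to 0.086 for Krt82 (both positive without Men1 siRNA replicate 1), and from −0.44 to 0.57 for Krt6b (negative without Men1 siRNA replicate 1 or scramble siRNA replicate 1). Precision is limited by having 2 arrays per group, and values under 100 limit the size of changes.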
